A study of Mus musculus with 4 samples.

Results

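The genes described here encode the factors that start protein synthesis (eukaryotic initiation factors, gene symbols beginning with Eif) and those that carry it along the message (eukaryotic elongation factors, Eef). Members were protein-coding genes whose symbol begins with Eif1 to Eif6, Eef1 or Eef2 in the GENCODE M21 mouse annotation, leaving out the Eif2ak kinases and Eif4enif1. The rule gave 63 genes of the 55573 gene identifiers in the table. It used no measured value, but it was chosen with earlier results of these data known. They were placed by name into eIF1 (5 genes), eIF2 (6), eIF2B (5), eIF3 (14), eIF4 (15), eIF5 (4), eIF6 (1), eEF1 (10) and eEF2 (3). Each group holds, beside subunits, single-chain factors and enzymes that carry the same name.

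The libraries came from RNA immunoprecipitation sequencing (RIP-seq), in which an antibody on beads recovers a protein with RNA bound to it and the RNA is sequenced. Of the 4 libraries, 2 used an antibody against Runx1, a transcription factor of blood formation, and 2 used IgG, a non-specific antibody that gives the background of the procedure. All 4 came from cells carrying CD31, a surface protein of endothelium and some blood cells, sorted from the caudal part of wild-type C57BL/6 embryos at embryonic day 10, with no treatment named. The comparison asks which RNAs the Runx1 antibody recovered beyond the IgG background, and an input library was not analysed here. The labels do not tell whether replicates are separate sorts or embryos, and p-values therefore cover only how far these libraries differ from each other, a difference that may be technical.

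Initiation begins when eIF2, carrying the initiator tRNA, joins eIF1, eIF3 and eIF5 on the small ribosomal subunit. The eIF4 factors bind the cap of the message and unwind its leader, and eIF5B joins the large subunit once the start codon is found. eEF1A then delivers each aminoacyl-tRNA, the eEF1B proteins recharge eEF1A with GTP, and eEF2 moves the ribosome along. Many elongation factor mRNAs begin with a pyrimidine tract through which mTOR signalling and LARP1 control their own translation. Blood stem cells are known to depend on a tightly held rate of protein synthesis.

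Gene counts were 1675488 and 1887301 in the Runx1 libraries and 3843318 and 2482045 in the IgG libraries. Levels are given in CPM, counts per 1e+06 gene counts, so that 3 counts equal 1.79 and 1.59 CPM in the Runx1 libraries and 0.781 and 1.21 CPM in the IgG libraries. No molecular identifiers are named in the labels, so this floor covers counting error only. A gene was called when its edgeR p adjusted over all 12401 tested genes was under 0.05, and values are relative to the typical gene of a library. Markers of endothelium summed to 1299 and 1111 CPM in the Runx1 libraries and 1409 and 1330 CPM in the IgG libraries, and none of the 28 cell type markers was at 0 in all libraries. Primitive erythroid markers summed to 677 and 716 CPM in the Runx1 libraries and 402 and 360 CPM in the IgG libraries. Neural markers summed to 556 and 492 CPM against 357 and 355 CPM in IgG, mesenchymal markers to 757 and 701 against 737 and 639 CPM, and epithelial markers to 136 and 142 against 120 and 99.5 CPM. Markers of blood cells summed to 134 and 211 CPM in the Runx1 libraries and 208 and 202 CPM in the IgG libraries. Of the 25 markers tested, 0 were called by edgeR and 7 had an unadjusted p under 0.05, 6 of them higher and 1 lower. Over all tested genes 6.88% were higher and 7.35% lower at that threshold. The part of the markers in the results below was not tested, and fewer cells of a type cannot be told apart here from less RNA per cell.

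Coding sequences of 4 members are shown first because they span the results: the 3 factors that were higher with the Runx1 antibody, and Eif4h, an abundant helper of the eIF4A helicase whose level overlapped between the antibodies. Each line is the 90-base stretch with the highest share of A that lies within 1 coding exon of the gene, read 5′ to 3′ on the strand of the gene in the GRCm38 (mm10) build, and capitals mark runs of 3 or more A. The Eif5b stretch lies at chr1:38021599-38021688 on the plus strand in exon 5 of 24 and is 64.4% A. The Eif3a stretch lies at chr19:60769898-60769987 on the minus strand in exon 16 of 22 and is 50.0% A. The Eef1a1 stretch lies at chr9:78479932-78480021 on the minus strand in exon 4 of 8 and is 41.1% A. The Eif4h stretch lies at chr5:134627589-134627678 on the minus strand in exon 2 of 7 and is 35.6% A.
Eif5b: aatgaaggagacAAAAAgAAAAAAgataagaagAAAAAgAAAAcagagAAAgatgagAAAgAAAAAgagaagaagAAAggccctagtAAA
Eif3a: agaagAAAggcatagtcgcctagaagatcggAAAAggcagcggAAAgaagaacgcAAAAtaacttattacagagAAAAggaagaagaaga
Eef1a1: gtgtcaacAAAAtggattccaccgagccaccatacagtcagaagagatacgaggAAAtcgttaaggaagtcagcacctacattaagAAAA
Eif4h: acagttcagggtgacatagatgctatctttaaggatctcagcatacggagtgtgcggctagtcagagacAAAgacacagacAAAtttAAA
The Eif5b stretch holds 9 such runs, the longest of 6 A, and the Eif3a stretch holds 5, the longest of 4 A. The Eef1a1 and Eif4h stretches hold 3 each. Uncalled members hold A-rich stretches too. With exon borders ignored, the highest share of A in 90 coding bases was 62.2% in Eif3j1 and 58.9% in Eif2s2. It was 50.0% in Eif3a and 41.1% in Eef1a1, beside a median of 41.1% over tested members and 40.0% over all tested coding genes.

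Of the 57 members tested, 3 were higher with the Runx1 antibody, 0 were lower and 54 did not pass, in the scaling in which the typical gene is unchanged. Over all tested genes 0.306% were called higher and 0.339% lower. The 3 called members are Eef1a1, Eif5b and Eif3a, and all 3 had values below 0, without being called, when libraries were scaled to the ERCC spike-ins. Among the 2381 tested genes averaging at least 100 CPM, where nearly all calls lie, 1.55% were called higher and 1.72% lower, and 21 members belong to that range. At an unadjusted edgeR p under 0.05, 16 members were higher and 3 lower, against 6.88% and 7.35% of all tested genes. DESeq2 called 10 members higher and 1 lower, against 1.98% and 2.77% of all tested genes. It gave no adjusted p to some members of low level, which count here as not called. Limma-voom called 4 higher and 0 lower, against 0.823% and 0.968%. Shares among genes of at least 100 CPM were taken for edgeR only. Both Runx1 libraries lay above both IgG libraries for 30 members and below them for 5, while 22 overlapped; the same held for 24.1% and 21.3% of all tested genes.

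The median log2 fold change over tested members was 0.49, against 0.03 over all tested genes and -0.14 over those of at least 100 CPM. The fold change was above 0 for 40 of the 57 members, against 51.5% of all tested genes. Summed over all members, the factors made up 29024 and 29182 CPM of the Runx1 libraries and 18933 and 18745 CPM of the IgG libraries. Without the 3 called genes the sums were 11082 and 12135 CPM in the Runx1 libraries and 9996 and 9752 CPM in the IgG libraries, and the median over the other 54 tested members was 0.43. Most of the difference in the summed level lay in the 3 called genes.

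These directions depend on the scaling. The 92 ERCC spike-in RNAs took 0.0356% and 0.0378% of the counts in the Runx1 libraries and 0.0129% and 0.0175% in the IgG libraries. When libraries were scaled to them, the median over all tested genes moved to -1.25 on the log2 scale and that over the members to -0.80. Relative to that shift the members' median stood at 0.46. In that scaling 5 of the 57 members were above 0, 0 were called higher and 14 were called lower, against 0.153% and 31.6% of all tested genes. The step at which the spike-ins were added is not given in the sources used here, so whether that scaling reflects the amount of RNA recovered was not tested. All fold changes below are relative to the typical gene.

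**Figure D1:**
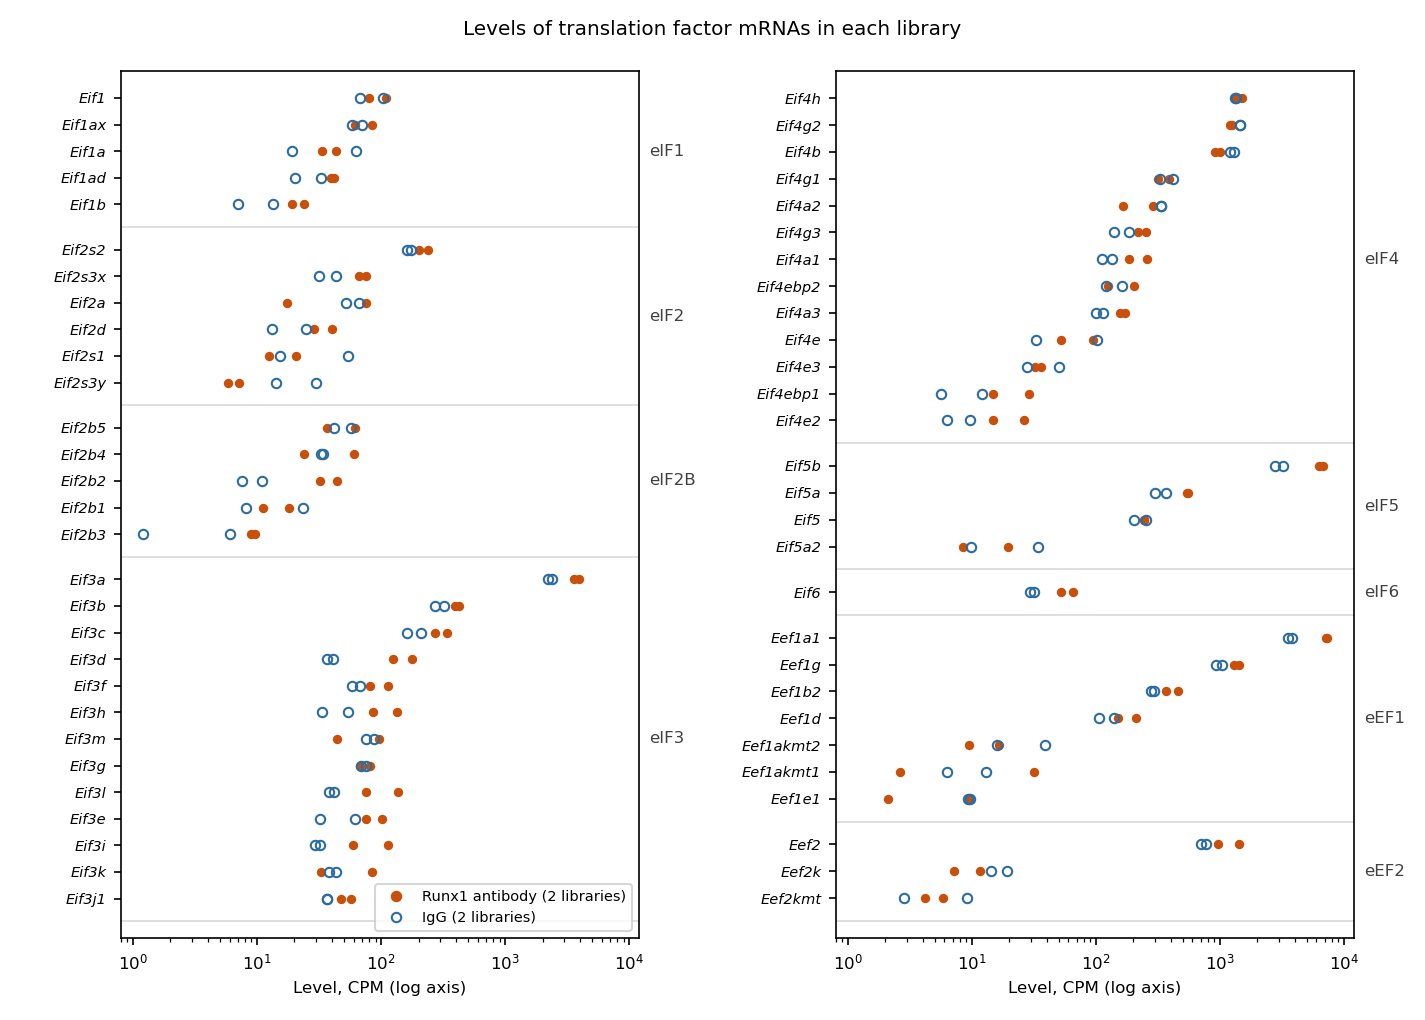
Levels in CPM (log axis) of the 57 tested factors in each of the 2 Runx1 libraries (filled circles) and 2 IgG libraries (open circles), grouped by complex and ordered by mean level. Eef1a1, Eif5b and Eif3a are set apart from the other factors at 3561 to 7304 CPM in the Runx1 libraries and 2218 to 3797 CPM in the IgG libraries. With scaling to the spike-ins their log2 fold changes lie below 0 without being called. In the scaling shown, 10 of the 13 eIF3 subunits have both Runx1 libraries above both IgG libraries, against 24.1% of all tested genes.

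**Figure D2:**
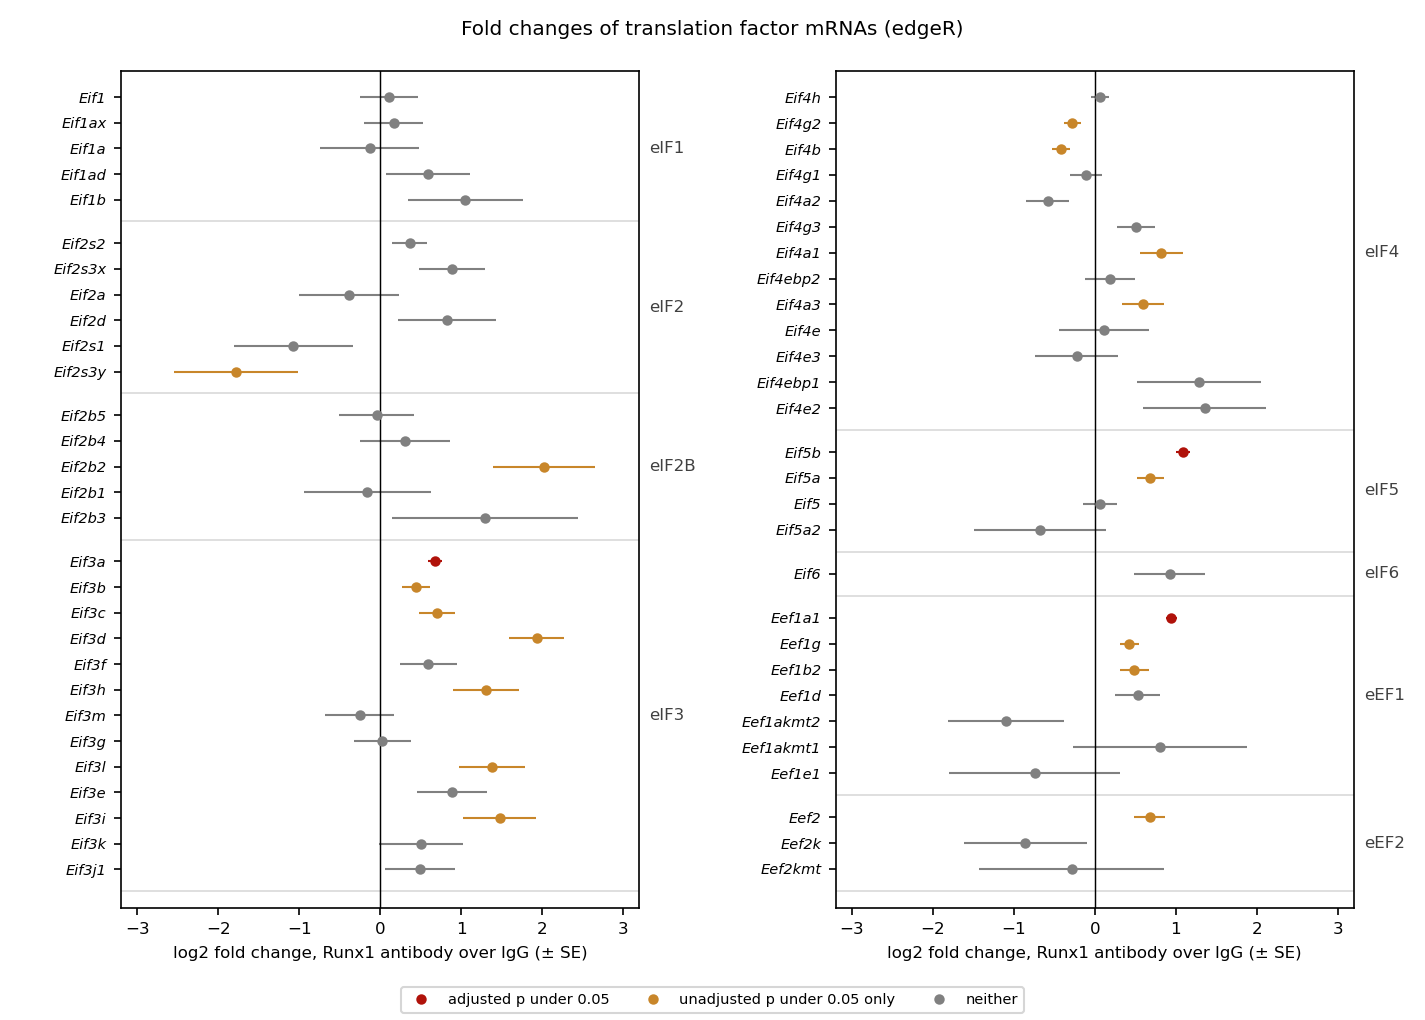
Log2 fold change, Runx1 antibody over IgG, with its standard error for the same 57 factors, from edgeR with 2 libraries per group. Red marks the 3 factors called at an adjusted p under 0.05 and orange the other 16 with an unadjusted p under 0.05. In this scaling 12 of the 13 eIF3 subunits lie right of 0, against 51.5% of all tested genes. Scaling to the spike-ins moves the median of all tested genes to -1.25 and leaves 5 of the 57 factors right of 0.

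The eEF1 proteins bring aminoacyl-tRNAs to the ribosome, and the gene of their main carrier was among the called genes. Eef1a1, which encodes the carrier eEF1A1 (chromosome 9, 78478449 to 78489151, GRCm38), had 7304 and 7172 CPM in the Runx1 libraries and 3797 and 3564 CPM in the IgG libraries. The 4 libraries fall into 2 tight pairs, and the difference between pairs is far larger than that within either. The log2 fold change was 0.95 ± 0.065 (SE, n = 2 and 2, edgeR adjusted p = 0.00249), a 1.93-fold rise. Eef1a1 has 12 near-identical processed pseudogenes in the annotation, of which Gm13456 held 22.1 and 18.5 CPM in the Runx1 libraries and 4.42 and 9.67 CPM in the IgG libraries. Another, Gm6548, held 11.9 and 22.3 CPM in the Runx1 libraries and 25.2 and 19.3 CPM in the IgG libraries. These are small beside the gene itself, and with the counts of all near-identical copies added the call held. Eef1a2, the paralogue used in muscle and neurons, did not pass the filter, with 0 and 0 counts in the Runx1 libraries and 3 and 0 counts in the IgG libraries.

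The exchange factors that reload eEF1A with GTP were not called by edgeR, and DESeq2 called Eef1g. Eef1g, the scaffold subunit, had 1292 and 1417 CPM in the Runx1 libraries and 1048 and 929 CPM in the IgG libraries. The libraries do not overlap, and the log2 fold change was 0.43 ± 0.12 (edgeR adjusted p = 0.169). Eef1g was called in DESeq2 (adjusted p = 0.0181). With 1 library left out its log2 fold change was 0.33 to 0.50, and the length and GC correction brought it to 0.12. Eef1b2, a catalytic subunit, had 457 and 369 CPM against 296 and 279 CPM in IgG, a difference of 0.49 ± 0.18 on the log2 scale (edgeR adjusted p = 0.271). Eef1akmt2, a methyltransferase that modifies eEF1A, lay at the other end of the group with 9.55 and 16.4 CPM in the Runx1 libraries and 15.9 and 39.1 CPM in the IgG libraries (log2 fold change -1.10 ± 0.72, edgeR adjusted p = 0.560). Over the 7 tested eEF1 members the median log2 fold change was 0.49, with 1 called higher, 5 above 0 and 4 higher without overlap. Over all tested genes the shares were 0.306%, 51.5% and 24.1%. The methyltransferase genes Eef1akmt3 and Eef1akmt4 were not tested, at 0 and 0 counts against 5 and 0 in IgG, and at 5 and 21 counts against 0 and 8 in IgG.

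Eef2, the translocase that moves the ribosome by 1 codon, had 957 and 1434 CPM in the Runx1 libraries and 765 and 704 CPM in the IgG libraries. Both Runx1 libraries are above both IgG libraries, but the Runx1 libraries also differ from each other by more than the lower one differs from IgG. The log2 fold change was 0.68 ± 0.19 (edgeR adjusted p = 0.164), while DESeq2 called it (adjusted p = 0.00403). Without the lower Runx1 library the log2 fold change was 0.91 and without the higher one 0.33. The length and GC correction gave 0.40, with an adjusted p of 0.352, the highest over the alternatives in which libraries are scaled to genes. Eef2k, the kinase that switches eEF2 off, had 7.16 and 11.7 CPM in the Runx1 libraries and 14.3 and 19.3 CPM in the IgG libraries, or -0.86 ± 0.76 on the log2 scale (edgeR adjusted p = 0.690). Neither Eef2 nor Eef2k was called by edgeR, and Eef2k rests on 12 and 22 counts in the Runx1 libraries and 55 and 48 in the IgG libraries.

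The eIF5 group held the member with the largest called fold change. Eif5b, the GTPase that joins the ribosomal subunits (chromosome 1, 37998010 to 38055579, GRCm38), had 6717 and 6314 CPM in the Runx1 libraries and 2770 and 3211 CPM in the IgG libraries. Neither pair spreads as far as the gap between them, a 2.14-fold rise in the fit, which is 1.09 ± 0.085 on the log2 scale (edgeR adjusted p = 0.00370). Once trends with transcript length and GC content were removed (the length and GC correction) the value was 1.57, still called. Rev1, a gene on the opposite strand that shares exon sequence with Eif5b, held 20.3 and 31.3 CPM in the Runx1 libraries and 36.2 and 36.3 CPM in the IgG libraries, and with it added the log2 fold change was 1.08. Eif5a, a factor that relieves stalled ribosomes and carries the modified residue hypusine, had 557 and 545 CPM in the Runx1 libraries and 370 and 301 CPM in the IgG libraries. The groups are well apart, but the difference, 0.69 ± 0.17 on the log2 scale, did not pass in edgeR (adjusted p = 0.122) and passed in DESeq2 (adjusted p = 0.00656), and the length and GC correction brought it to 0.23. Its paralogue Eif5a2 had 19.7 and 8.48 CPM in the Runx1 libraries and 9.89 and 34.2 CPM in the IgG libraries, which overlap (log2 fold change -0.67 ± 0.82, edgeR adjusted p = 0.789). The enzymes that make hypusine, Dhps and Dohh, were both tested and neither was called.

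eIF3 is the largest initiation factor, a ring of subunits that holds the small ribosomal subunit open for the message. Of its 14 genes 13 were tested, edgeR called 1 higher and 0 lower, and 12 did not pass. DESeq2 called 5 of the 13 higher, namely Eif3a, Eif3d, Eif3h, Eif3i and Eif3l. Over all tested genes edgeR called 0.306% higher and 0.339% lower, and DESeq2 called 1.98% higher. The median log2 fold change of the 13 was 0.68, with 12 above 0, and 0.65 without Eif3a. Both Runx1 libraries lay above both IgG libraries for 10 of the 13, against 24.1% of all tested genes. The edgeR p before adjustment was under 0.05 for 7, all higher, beside 6.88% of all tested genes. With scaling to the spike-ins the median turned to -0.61.

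Eif3a, the largest scaffold subunit (chromosome 19, 60761117 to 60790658, GRCm38), had 3921 and 3561 CPM in the Runx1 libraries and 2369 and 2218 CPM in the IgG libraries. The 2 groups are clearly separate, at 0.68 ± 0.084 on the log2 scale (edgeR adjusted p = 0.0203), a 1.60-fold rise. After the length and GC correction it was 1.00. On a scale per kilobase of the longest transcript, Eif3a stood at 730 CPM per kb in the Runx1 libraries and 447 CPM per kb in the IgG libraries. The other 12 tested subunits ranged from 9.70 to 139 CPM per kb in the Runx1 libraries and from 6.75 to 101 CPM per kb in the IgG libraries. Eif3a was 11.1 times the median of the others in the Runx1 libraries and 13.8 times in the IgG libraries, so its high level among subunits that form a complex in equal numbers was present with either antibody.

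The eIF3 subunits with the widest separation were not the most abundant ones. Eif3d, a subunit that can itself bind the cap, had 125 and 178 CPM in the Runx1 libraries and 40.9 and 36.7 CPM in the IgG libraries. Even the lower Runx1 library lies far above both IgG libraries, and the log2 fold change was 1.93 ± 0.34 (edgeR adjusted p = 0.0522). It missed the threshold here and passed it with DESeq2 (adjusted p = 4.2e-05) and with limma-voom (adjusted p = 0.0196). These methods called 1.98% and 0.823% of all tested genes higher, against 0.306% in edgeR. With 1 library left out the log2 fold change of Eif3d was 1.63 to 2.14. After the length and GC correction its adjusted p was 0.110, and the highest over gene-scaled alternatives was 0.151. Eif3i, a WD-repeat subunit, had 59.7 and 113 CPM in the Runx1 libraries and 32.0 and 29.0 CPM in the IgG libraries (log2 fold change 1.48 ± 0.45, edgeR adjusted p = 0.197). Eif3l, a subunit of the ring-shaped core, had 75.8 and 136 CPM against 37.99 and 41.9 CPM in IgG (log2 fold change 1.38 ± 0.41, edgeR adjusted p = 0.187). In these 3 the second Runx1 library was the higher one. Without the first, lower one, the log2 fold changes of Eif3i and Eif3l were 1.84 and 1.72, and without the second they were 0.91 and 0.87.

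Eif3h, a subunit of the same core, had 86.5 and 134 CPM in the Runx1 libraries and 54.1 and 33.0 CPM in the IgG libraries (log2 fold change 1.31 ± 0.41, edgeR adjusted p = 0.205). Eif3c, the scaffold subunit that contacts eIF1 and eIF5, had 273 and 340 CPM in the Runx1 libraries and 208 and 161 CPM in the IgG libraries (log2 fold change 0.70 ± 0.23, edgeR adjusted p = 0.213). Eif3b, a core scaffold subunit, had 394 and 426 CPM in the Runx1 libraries and 273 and 319 CPM in the IgG libraries (log2 fold change 0.44 ± 0.18, edgeR adjusted p = 0.307). In all 3 the groups are apart without passing the edgeR test, though Eif3h passed in DESeq2 (adjusted p = 0.0412) and without the first Runx1 library (1.56, edgeR adjusted p = 0.0406). Eif3m was the 1 tested subunit below 0, at 44.2 and 95.4 CPM in the Runx1 libraries and 88.2 and 75.3 CPM in the IgG libraries. Its Runx1 libraries lie on either side of the IgG libraries (log2 fold change -0.25 ± 0.43, edgeR adjusted p = 0.862). Eif3j2 was not tested, at 2 and 0 counts in the Runx1 libraries and 2 and 1 counts in the IgG libraries. It is near-identical to Eif3j1, so reads of the pair could be divided either way by the counting.

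**Figure D3:**
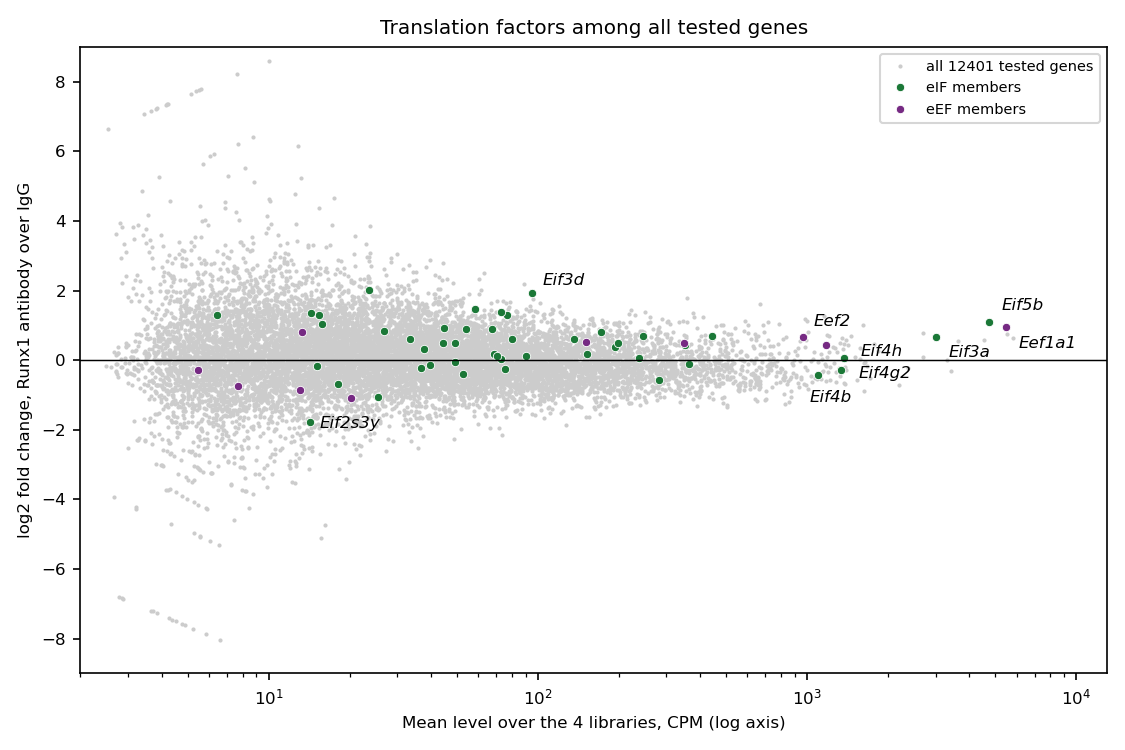
Log2 fold change, Runx1 antibody over IgG, against the mean level over the 4 libraries (CPM, log axis) for all 12401 tested genes (grey), initiation factors (green) and elongation factors (purple). Eef1a1, Eif5b and Eif3a lie at the high end of the level axis above 0 in the scaling shown, at 0.95, 1.09 and 0.68, and would lie at -0.34, -0.17 and -0.61 with scaling to the spike-ins.

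The eIF4 factors, which bind the cap and unwind the leader, lay closer to the typical gene. Of 15 genes 13 were tested, none was called by edgeR in either direction, and the median log2 fold change was 0.11. At an unadjusted p under 0.05 there were 2 higher and 2 lower, beside 6.88% and 7.35% of all tested genes, and DESeq2 called 1 lower, Eif4b, beside 2.77%. The summed level of the group was 4936 and 5284 CPM in the Runx1 libraries and 5326 and 5474 CPM in the IgG libraries, slightly lower with the Runx1 antibody. The sum joins members that differ in direction. Of the 13, 5 were higher without overlap, 3 were lower without overlap and 5 overlapped, against 24.1% higher and 21.3% lower of all tested genes. Eif4h had 1327 and 1505 CPM in the Runx1 libraries and 1343 and 1319 CPM in the IgG libraries. The lower Runx1 library lies among the IgG libraries, and the log2 fold change was 0.06 ± 0.11 (edgeR adjusted p = 0.875).

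Eif4b, an RNA-binding partner of the eIF4A helicase and a target of S6 kinase, had 998 and 909 CPM in the Runx1 libraries and 1204 and 1291 CPM in the IgG libraries. Both Runx1 libraries are below both IgG libraries, at -0.42 ± 0.11 on the log2 scale (edgeR adjusted p = 0.163). Eif4b was called in DESeq2 (adjusted p = 0.0181). The length and GC correction gave -0.41 (edgeR adjusted p = 0.256), and with 1 library left out the log2 fold change was -0.51 to -0.37. Eif4g2, an eIF4G-like scaffold that lacks the site for the cap-binding protein, had 1246 and 1205 CPM in the Runx1 libraries and 1459 and 1455 CPM in the IgG libraries. Replicates agree closely in each group, and the log2 fold change was -0.28 ± 0.10 (edgeR adjusted p = 0.271). The length and GC correction turned it to 0.22, so its direction rests on that choice.

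Paralogues of the helicase eIF4A lay on both sides of 0. Eif4a1, the main cytoplasmic form, had 185 and 256 CPM in the Runx1 libraries and 112 and 134 CPM in the IgG libraries (log2 fold change 0.82 ± 0.26, edgeR adjusted p = 0.212). Eif4a2, a form abundant in brain and muscle, had 167 and 288 CPM in the Runx1 libraries and 332 and 337 CPM in the IgG libraries (log2 fold change -0.58 ± 0.26, edgeR adjusted p = 0.364). With 1 library left out the log2 fold change was -1.06 to -0.27 for Eif4a2 and 0.54 to 1.01 for Eif4a1. The length and GC correction gave -0.33 for Eif4a2 (edgeR adjusted p = 0.760) and 0.64 for Eif4a1 (edgeR adjusted p = 0.418). The ratio of Eif4a1 to Eif4a2, taken on CPM within a library, was 1.11 and 0.891 in the Runx1 libraries and 0.336 and 0.397 in the IgG libraries. A ratio within a library does not depend on how libraries are scaled, and here the groups do not overlap. The ratio is not corrected for length and GC content, a correction that moved the fold changes of both genes as given above. The exact two-sided permutation p was 0.333, the smallest that 2 against 2 libraries can give. Eif4a3, the exon junction member of the family, had 158 and 173 CPM in the Runx1 libraries and 101 and 114 CPM in the IgG libraries. Its log2 fold change was 0.60 ± 0.26 (edgeR adjusted p = 0.340), and 0.17 after the length and GC correction. The ratio of Eif4a2 to Eif4a3 was 1.06 and 1.67 in the Runx1 libraries and 3.30 and 2.96 in the IgG libraries. Exons of Eif4a2 overlap 6 other annotated genes on its strand and those of Eif4a1 overlap 2, so that reads there could have been assigned elsewhere.

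The cap-binding protein and its partners gave no call. Eif4e, which holds the cap, had 95.5 and 51.9 CPM in the Runx1 libraries and 32.8 and 102 CPM in the IgG libraries, a spread within each group as wide as any gap between them (log2 fold change 0.11 ± 0.56, edgeR adjusted p = 0.968). Eif4e2, a paralogue linked to repression and to translation in low oxygen, had 14.9 and 26.5 CPM in the Runx1 libraries and 6.24 and 9.67 CPM in the IgG libraries (log2 fold change 1.36 ± 0.76, edgeR adjusted p = 0.478). Eif4e3 had 36.4 and 32.3 CPM against 50.5 and 27.8 CPM in IgG, and a protein-coding gene that shares its sequence, Gm20696, had 68.6 and 53.0 CPM against 22.6 and 22.6 CPM in IgG. The log2 fold change of Eif4e3 was -0.22 ± 0.51 alone and 0.59 with that gene added, so its direction is not fixed by these counts.

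Of the scaffolds, Eif4g1 had 319 and 386 CPM in the Runx1 libraries and 327 and 420 CPM in the IgG libraries (log2 fold change -0.11 ± 0.20, edgeR adjusted p = 0.874). Eif4g3, its close paralogue, had 251 and 219 CPM in the Runx1 libraries and 184 and 140 CPM in the IgG libraries (log2 fold change 0.51 ± 0.23, edgeR adjusted p = 0.372). The ratio of Eif4g2 to Eif4g3 was 4.96 and 5.51 in the Runx1 libraries and 7.92 and 10.4 in the IgG libraries, again without overlap. The repressors that mTOR releases from eIF4E were also uncalled. Eif4ebp1 had 14.9 and 29.1 CPM in the Runx1 libraries and 11.97 and 5.64 CPM in the IgG libraries (log2 fold change 1.28 ± 0.77, edgeR adjusted p = 0.513). Eif4ebp2 had 124 and 203 CPM in the Runx1 libraries and 162 and 120 CPM in the IgG libraries (log2 fold change 0.19 ± 0.31, edgeR adjusted p = 0.859). Eif4ebp3 and Eif4e1b, an egg-type cap-binding protein, had 0 counts in all 4 libraries. A protein-coding gene that shares a near-identical stretch with Eif4ebp3, AC115631.1, had 9 and 19 counts in the Runx1 libraries. It had 42 and 35 counts in the IgG libraries, and reads of Eif4ebp3 could have been assigned to it.

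**Figure D4:**
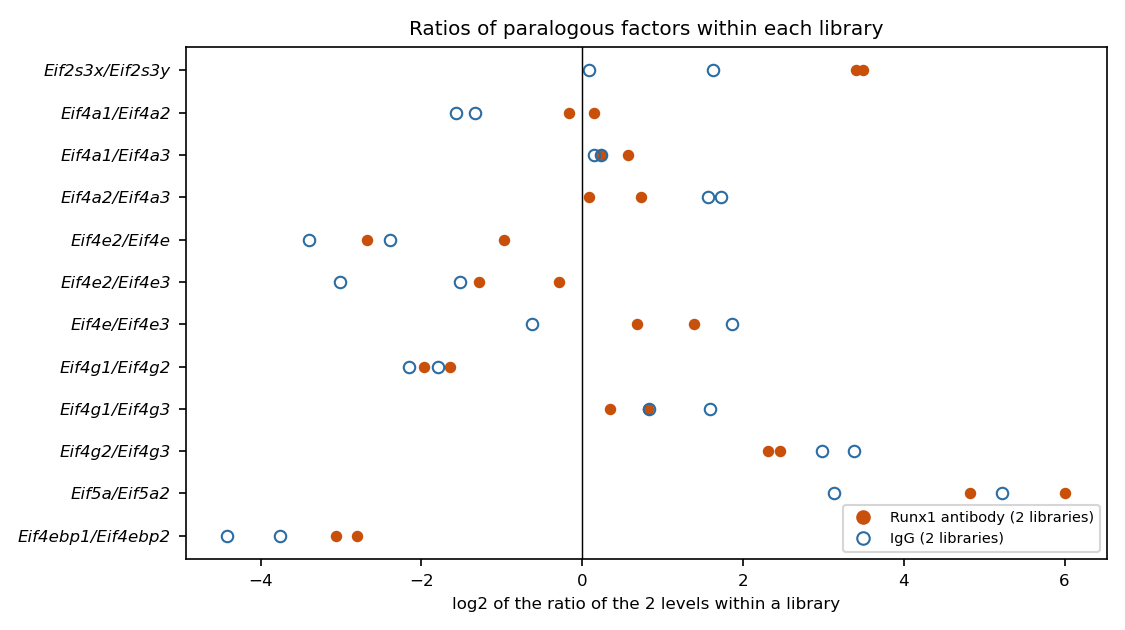
Log2 of the ratio of 2 paralogues within each library, on CPM, for the Runx1 libraries (filled circles) and the IgG libraries (open circles), in 12 pairs. The libraries of the 2 antibodies do not overlap in 7 of the 12 pairs, Eif4a1/Eif4a2 and Eif2s3x/Eif2s3y among them. Several pairs share a gene, and no pair can have an exact permutation p below 0.333.

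eIF2 carries the initiator tRNA, and eIF2B reloads it with GTP, the step that stress kinases block. No member of either group was called by edgeR. DESeq2 called none of those to which it gave an adjusted p. It gave none to Eif2d, Eif2s1, Eif2s3y, Eif2b1, Eif2b2 and Eif2b3. Over the 6 tested eIF2 members the median log2 fold change was -0.01. Eif2s2, the beta subunit, had 204 and 237 CPM in the Runx1 libraries and 162 and 174 CPM in the IgG libraries (log2 fold change 0.36 ± 0.22, edgeR adjusted p = 0.519). Eif2a, a single-chain factor that can also deliver the initiator tRNA, had 75.2 and 17.5 CPM in the Runx1 libraries and 66.3 and 51.6 CPM in the IgG libraries (log2 fold change -0.39 ± 0.62, edgeR adjusted p = 0.854).

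The gamma subunit of eIF2 is encoded in the mouse by an X-linked and a Y-linked gene. Eif2s3x had 75.8 and 65.7 CPM in the Runx1 libraries and 31.5 and 43.5 CPM in the IgG libraries (log2 fold change 0.89 ± 0.41, edgeR adjusted p = 0.375). Eif2s3y had 7.16 and 5.83 CPM in the Runx1 libraries and 29.7 and 14.1 CPM in the IgG libraries (log2 fold change -1.78 ± 0.77, edgeR adjusted p = 0.343). The ratio of Eif2s3x to Eif2s3y was 10.6 and 11.3 in the Runx1 libraries and 1.06 and 3.09 in the IgG libraries, and it rests on 12 and 11 counts of Eif2s3y in the Runx1 libraries and 114 and 35 counts in the IgG libraries. The exact two-sided permutation p was again 0.333, the smallest possible here. Other sex-linked genes were also measured. Xist, expressed from the inactive X, had 71.6 and 82.7 CPM in the Runx1 libraries and 109 and 136 CPM in the IgG libraries, and the Y-linked Ddx3y had 62.7 and 92.2 CPM against 105 and 102 CPM in IgG. The log2 fold changes were -0.70 for Xist, -0.44 for Ddx3y, -0.95 for Uty and -1.51 for Kdm5d, none called. After the length and GC correction they were -0.01 for Xist, 0.19 for Ddx3y, -0.31 for Uty and -0.99 for Kdm5d, and the part of sex composition in the Eif2s3y values was not tested.

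In eIF2B, Eif2b2, the beta subunit of the regulatory core, had 32.2 and 44.0 CPM in the Runx1 libraries and 7.55 and 10.9 CPM in the IgG libraries. The groups are wide apart, but the counts are low and the difference, 2.02 ± 0.63 on the log2 scale, did not pass (edgeR adjusted p = 0.205). Eif2b5, the catalytic epsilon subunit, had 61.5 and 36.6 CPM against 41.4 and 57.6 CPM in IgG (log2 fold change -0.04 ± 0.46, edgeR adjusted p = 0.983). Eif2b1, the alpha subunit, had 17.9 and 11.1 CPM against 23.4 and 8.06 CPM in IgG (log2 fold change -0.16 ± 0.78, edgeR adjusted p = 0.966). The median over the 5 subunits was 0.31.

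The eIF1 group, mostly small proteins that keep the scanning ribosome from starting at the wrong codon, gave no call over 5 members and a median log2 fold change of 0.17. Eif1 had 109 and 80.0 CPM in the Runx1 libraries and 104 and 67.7 CPM in the IgG libraries, which overlap (log2 fold change 0.11 ± 0.36, edgeR adjusted p = 0.939). Eif1b had the largest fold change, at 23.9 and 19.1 CPM in the Runx1 libraries and 7.03 and 13.3 CPM in the IgG libraries (log2 fold change 1.05 ± 0.72, edgeR adjusted p = 0.575). Eif1a had the smallest, at 43.6 and 33.4 CPM against 63.0 and 18.9 CPM in IgG (log2 fold change -0.13 ± 0.61, edgeR adjusted p = 0.964). Eif6, which keeps the large ribosomal subunit from joining too early, had 52.5 and 65.7 CPM in the Runx1 libraries and 29.7 and 31.4 CPM in the IgG libraries (log2 fold change 0.93 ± 0.44, edgeR adjusted p = 0.386). The other 16 tested factors, spread over these groups, had log2 fold changes from -1.07 ± 0.74 for Eif2s1 to 1.30 ± 1.15 for Eif2b3. Eif2s1, the eIF2 subunit that stress kinases phosphorylate, had 12.5 and 20.7 CPM against 15.4 and 53.6 CPM in IgG, which overlap. With 1 library left out its value was -1.72 to 0.08. Eif2b3, the gamma subunit of eIF2B, rests on 15 and 18 counts in the Runx1 libraries and 23 and 3 in the IgG libraries. Of the 16, 13 lay above 0, and the smallest edgeR adjusted p was 0.397, for Eif3e.

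**Figure D5:**
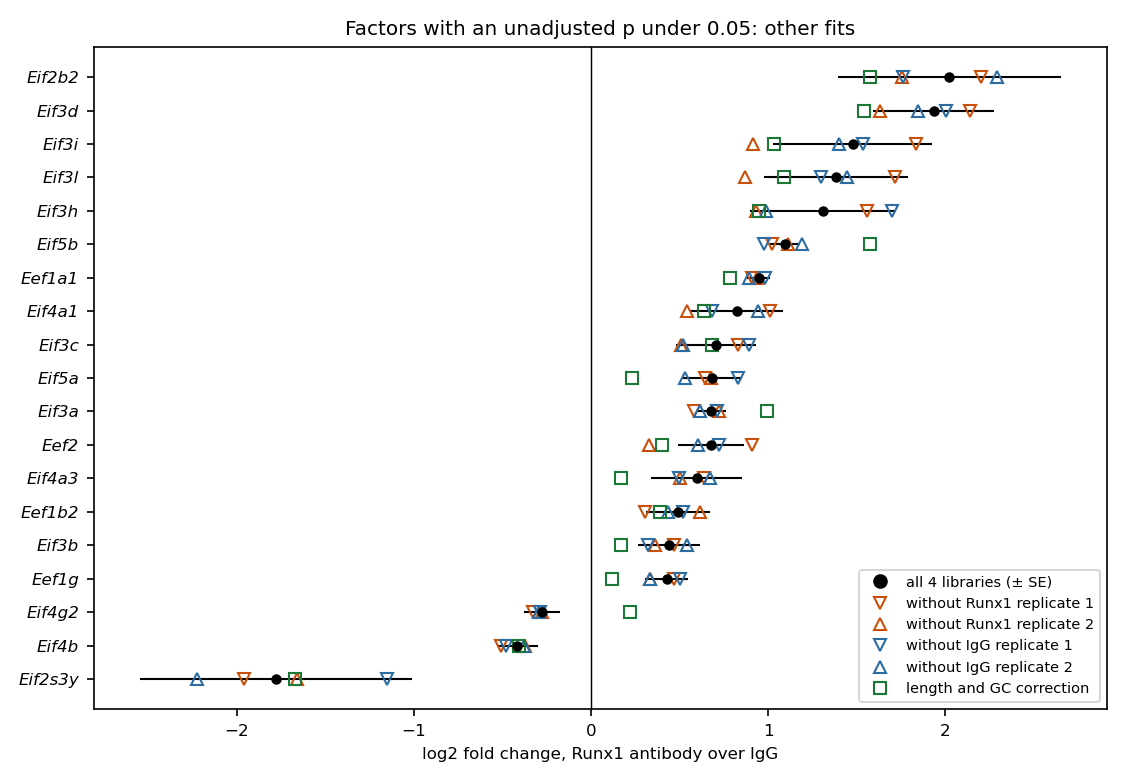
Log2 fold changes, Runx1 antibody over IgG, of the 19 factors with an unadjusted p under 0.05, from the fit to all 4 libraries (black, with standard error), from fits that leave out 1 library (triangles) and after the length and GC correction (squares). Eif5b moves to 1.57 and Eif3a to 1.00 with the correction and Eif4g2 crosses 0 to 0.22, while scaling to the spike-ins, not drawn, would put Eef1a1, Eif5b and Eif3a at -0.34, -0.17 and -0.61.

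The members also differ in sequence composition. The coding sequence of Eif5b is 37.4% A, a share reached by 0.759% of the 10677 tested coding genes. Its most A-rich stretch of 90 coding bases, exon borders ignored, is 67.8% A, a share reached by 0.0375% of them. Lysine codons (AAA and AAG) make up 14.3% of Eif5b codons. Eif2s2, at 38.2% A, has an A-rich coding sequence too, but its log2 fold change was 0.36 and did not pass. Eif3a is 33.2% A, Eef1a1 27.0% A and Eif4h 25.6% A, beside a median of 27.5% over the 57 tested members and 25.7% over all tested coding genes. Across the 57 members the correlation of fold change with the A content of the coding sequence was -0.22 (Pearson) and -0.24 (Spearman), and with transcript GC content 0.43 and 0.35. Over the 21 members of at least 100 CPM, which include the 3 called, they were 0.01 and -0.04 for A content and 0.19 and 0.12 for GC content. For the share of lysine codons they were 0.34 and 0.31 over these 21, but -0.02 and -0.04 over the 57 members. Over the 10677 coding genes the lysine codon values were 0.015 and 0.0055, and those for A content -0.12 and -0.14. For the share of A in the most A-rich stretch the correlations were -0.05 and -0.09 over the 57 members. They were 0.16 and -0.06 over the 21, and -0.15 and -0.18 over the 10677 coding genes. These describe genes of the same 4 libraries, which are not independent replicates. Over the 10677 coding genes the correlation with GC content was 0.23 (Pearson) and 0.27 (Spearman), and that with the logarithm of transcript length was -0.25 and -0.30. The length and GC correction, which takes out such trends, left the members' median at 0.39, beside 0.05 over all tested genes. The same 3 members were called higher and 0 lower, against 0.234% and 0.0484% of all tested genes. Without the 3 the corrected median was 0.27. Corrected medians by group were 0.90 for eIF3, 0.46 for eIF1, 0.44 for eIF6, 0.31 for eIF5 and 0.26 for eEF1. They were 0.22 for eIF4, 0.05 for eIF2, -0.05 for eIF2B and -0.62 for eEF2.

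No partner of these factors was called by edgeR. Of 37 genes that act beside them, in termination, eIF2 phosphorylation, cap and poly(A) binding, hypusine synthesis, scanning, mTOR signalling and mitochondrial translation, all were tested, 0 were called by edgeR in either direction. At an unadjusted p under 0.05 there were 3 higher and 3 lower, beside 6.88% and 7.35% of all tested genes. The median log2 fold change over the 37 was 0.07. Pabpc1, the main poly(A)-binding protein, had 1158 and 1076 CPM in the Runx1 libraries and 889 and 799 CPM in the IgG libraries (log2 fold change 0.38 ± 0.12, edgeR adjusted p = 0.212). Pabpc4, its inducible relative, had a log2 fold change of 0.71 ± 0.23 and the scanning helicase Dhx29 one of 1.45 ± 0.56. Ddx3x, another scanning helicase, had 580 and 529 CPM in the Runx1 libraries and 796 and 718 CPM in the IgG libraries (log2 fold change -0.48 ± 0.14, edgeR adjusted p = 0.180), and -0.07 after the length and GC correction. The termination factor Etf1 had a log2 fold change of -0.76 ± 0.31, and Rheb, the GTPase that activates mTOR, one of -0.94 ± 0.29. The edgeR adjusted p of the 6 lay between 0.180 (Ddx3x) and 0.322 (Etf1).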

How the data were processed

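The authors deposited a table of raw whole-number counts per Ensembl gene, 1 column per library, with no normalization. The submitters' processing notes name Salmon 1.1.0, STAR 2.7.3a, Trimmomatic 0.36 and mm10 without saying what each did. How strand was handled, which annotation was used and how reads of similar genes were divided is not stated; 30 members share a near-identical stretch (95% identity over at least 200 bases, blastn 2.17.0) with another gene. Per the labels' protocols, recovered RNA was reverse transcribed by a single-cell method and the cDNA was sheared.

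Of 55573 identifiers, 55480 were found in GENCODE M21. Library sizes and tests leave out the 92 ERCC rows. The gene test was that of edgeR 4.0.16 under R 4.3.3 (quasi-likelihood, two-sided, TMM, filterByExpr with minimum count 10 and minimum total 15) over all 4 libraries with no block, adjusted by Benjamini-Hochberg over 12401 genes at 0.05. Alternatives were DESeq2 1.42.0, limma-voom (limma 3.58.1), other filters and scalings, a replicate block, each library left out, splines of 5 degrees of freedom for length and GC content, and near-identical copies added.

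The members and all gene lists were chosen with earlier results of these data known. Named members are those called, those with an unadjusted p under 0.05, the most abundant and the extreme members of each complex, and 7 paralogue sets; other genes appear as controls or near-identical copies. Whether equal replicate numbers pair libraries is not stated in the labels, and the deviations of the first Runx1 and first IgG library correlated at 0.00438.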

Additional observations from a re-analysis of the deposited data

Results flagged for a closer look

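The ERCC spike-in rows, which enter no gene test, took a larger share of all counts in the Runx1 libraries, at 0.0356% and 0.0378%, than in the IgG libraries, at 0.0129% and 0.0175%. They were singled out as a signal outside the main measurement that stood above its level in the control libraries. The translation factors turn from a median log2 fold change of 0.49 to -0.80 when this share is used for scaling.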

How the results depend on the processing

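Eef1a1, Eif5b and Eif3a were called in every fit that left out a library, after the length and GC correction, with near-identical copies added, in DESeq2 and in limma-voom. Scaling to the spike-ins turned them to -0.34, -0.17 and -0.61 and gave 19 genes higher and 3914 lower, with 0 factors higher, 14 lower and a median over factors of -0.80. With a replicate block 2 genes were higher and 0 lower, and Eif3a did not pass (0.68, edgeR adjusted p = 0.0616) while Eef1a1 and Eif5b did. Against 38 genes higher and 42 lower in the edgeR fit, no low-count filter gave 224 and 325, at least 10 counts in every library 125 and 160, DESeq2 246 and 344, and limma-voom 102 and 120; the length and GC correction gave 6 lower. Leaving out 1 library gave 94 to 248 higher and 80 to 352 lower. Factors called higher numbered 7 with no filter, 5 with at least 10 counts, 10 with DESeq2 and 4 to 10 with a library left out, the most without Runx1 replicate 1. Factors called lower numbered 1 with DESeq2 and 0 to 1 with a library left out, which was Eif4b without Runx1 replicate 1 and Eif4a2 without Runx1 replicate 2. The median over factors was 0.35 to 0.49 with a library left out, lowest without Runx1 replicate 1. The length and GC correction turned Eif1 to -0.23, Eif1a to 0.10, Eif4g2 to 0.22 and Eif4h to -0.23. The block turned Eif1a to 0.094, and added copies turned Eif4e3 to 0.59. With a library left out, uncalled members crossed 0, with ranges of -0.17 to 0.44 for Eif1, -0.75 to 0.98 for Eif1a, -1.81 to 0.30 for Eif2a, -0.73 to 0.80 for Eif2b1, -0.49 to 0.26 for Eif2b5, -0.94 to 0.17 for Eif3m, -0.51 to 1.12 for Eif4e, -0.60 to 0.26 for Eif4e3, -0.24 to 0.47 for Eif4ebp2, -0.29 to 0.071 for Eif4g1, -0.057 to 0.12 for Eif4h and -1.42 to 0.46 for Eif5a2. Of the 57 tested members 37 kept their sign in all 4 of these fits. The causes of these changes were not tested, and with 1 library left in a group that library is assumed to vary like the others.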
